A study of Blastobotrys raffinosifermentans with 8 samples.

Results

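The tags at the ends of the 4 chromosomes of *Blastobotrys raffinosifermentans* LS3 were examined on 8 one-colour arrays. *B. raffinosifermentans* is a dimorphic yeast that grows on tannins and on gallic acid. Tags are the locus names (prefix ARAD1A, ARAD1B, ARAD1C or ARAD1D for the chromosome, then a number) that the probes of the array carry. For each prefix the tags were sorted by number, and the first 25 and the last 25 were taken, without the stretch from ARAD1C45606g to ARAD1C45804g at the last end of ARAD1C. This gave 191 end tags out of 6160 tags in all. They comprised 25 tags at each of 7 ends and 16 tags at the last end of ARAD1C, and they were set against the other 5901 tags of the prefixes A to D. The tags were taken by number, but the stretch left out was chosen with earlier results of these data known. With that stretch kept, 9 rather than 6 end tags met the size rule for gallic acid described further on, and 0.515% passed the gallic acid test. The number stands in for position, since no annotation with coordinates was used here, and the distance of a tag from the telomere is not known.

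The sections next to a telomere are called subtelomeres. In *Saccharomyces cerevisiae*, silencing proteins bind the telomeres, and genes placed close to them can be kept inactive. Subtelomeres of yeasts also often hold gene families for the uptake and use of less common nutrients, which are read only under particular conditions. Whether either holds at the ends of the *B. raffinosifermentans* chromosomes was not tested.

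All cells were of strain LS3, were grown overnight on glucose with nitrate as the nitrogen source, and were then moved to fresh nitrate medium. In the glucose arm the fresh medium held 1% glucose, and in the gallic acid arm it held 1% glucose with 0.5% gallic acid, so both arms went through the change of medium. Each arm has 1 array for each of 4 harvest times (15 and 30 min, 2 and 5 h), and no harvest time has a replicate within an arm. Nothing in the labels says that the arrays of an arm came from separate cultures, so p-values measure the spread between these arrays only. All 8 arrays lay on 1 slide, where the row follows the treatment and the column follows the harvest time, so that these cannot be told apart. Of the yeast spots, 56.7% to 81.9% per array were marked as well above background, the scanner software's own mark for a spot that stands clear of its surroundings. The tags come without gene names, and the study's text gives a role to 1 of the end tags only, ARAD1C00330g, a candidate hydroxylase.

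End tags gave a weaker signal than the rest of the chromosomes on each of the 8 arrays. The share of probes well above background among the 1756 probes of the end tags was 66.3%, 61.2%, 67.4% and 45.1% in glucose, in order of harvest time. With gallic acid it was 46.6%, 56.3%, 61.2% and 46.2% at the same harvest times. The mean share was 56.3% ± 9.21 (SD, n = 8 arrays) for end tags against 69.4% ± 9.84 for the 54130 probes of the other tags. On a given array the end tags lay between 11.2 and 15.4 percentage points below the other tags, a difference of 13.1 points on average (SD 1.31). The share moved up and down with the array in both sets, and the end tags were the lower set on 8 of 8 arrays. Most of the SD of each share is therefore common to both sets.

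The level of a tag is the median over its probes of the normalised log2 signal. A level is a signal and not an amount of transcript, because probes differ in how well they bind. The median level of the end tags was between 6.18 and 6.21 on the 8 arrays, and that of the other tags between 6.42 and 6.44. The difference was −0.23 ± 0.016 on the log2 scale (SD, n = 8 arrays), and end tags were lower on 8 of 8 arrays. All arrays read the same probes, so this SD and the counts of arrays, for level and share alike, measure how repeatable the readings are. They do not measure a spread over ends. For scale, the 5421 probes that were well above background on none of the arrays had a median level between 5.90 and 5.95. The size of the difference depends on how the background was handled, and it was −0.87 with the scanner's processed signal, −0.62 with normexp at offset 0 and −0.40 in the authors' log2 table. All of these share the sign. The share of probes well above background does not depend on these steps.

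**Figure D1:**
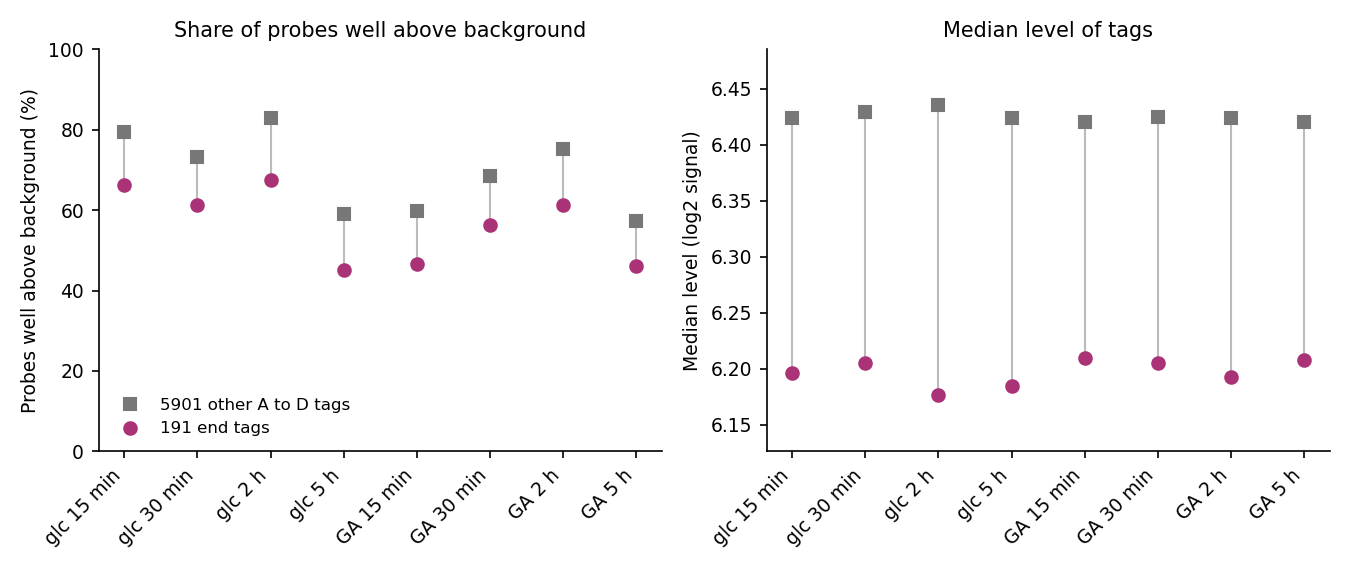
Left, share of probes well above background (%) on each of the 8 arrays (glc, glucose; GA, gallic acid), for the 191 end tags (circles) and the 5901 other A to D tags (squares). Right, median level (log2 signal, axis not starting at 0) of the same sets; the end tags are lower on each array in both panels, by 11.2 to 15.4 points on the left.

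The ends held more tags at background and fewer bright tags than the rest of the chromosomes. Of the 191 end tags, 46 (24.1%) had a mean share of probes above background under 25%, compared with 582 (9.86%) of the other tags. None of the probes was well above background on any array for 5 end tags (2.62%) and for 15 other tags (0.254%). At the opposite extreme, 27 end tags (14.1%) had all probes above background on all arrays, compared with 1465 (24.8%) of the other tags. A mean level of at least 8 was reached by 13 end tags (6.81%) and by 583 other tags (9.88%). The numbers of probes per tag were alike, with fewer than 10 probes for 21.5% of end tags and 22.3% of other tags. Among tags with exactly 10 probes the mean share was 55.4% at the ends (149 tags) and 66.2% elsewhere (4583 tags).

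The low signal was not spread evenly over the 8 ends. The mean share was 35.2% at the last end of ARAD1D, 41.0% at the first end of ARAD1C, 48.3% at the last end of ARAD1A and 56.2% at the first end of ARAD1A, and each of these 4 ends lay below the other tags on 8 of 8 arrays. It was 65.1% at the first end of ARAD1B (lower on 7 arrays), 66.9% at the last end of ARAD1C (5 arrays) and 68.8% at the last end of ARAD1B (5 arrays). The first end of ARAD1D had 72.4% and was below the other tags on 1 array only, although its median level was lower on 6. The low share was clearest at 4 of the ends, and the 4 others differed from the rest of the chromosomes on some arrays only or by little. Without the last end of ARAD1D the mean share of the end tags was 59.5% and the level difference −0.17.

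When each chromosome was read in consecutive windows of 25 tags, the 3 windows with the lowest share among all 241 were ends. These were the last end of ARAD1D, the first end of ARAD1C and the last end of ARAD1A. The 233 inner windows ranged from 49.4% to 84.9% with a median of 69.6%, and 7 of the 8 ends fell below that median. Weak stretches also occurred inside the chromosomes, and the lowest inner window (ARAD1C06908g to ARAD1C07458g, 49.4%) was close to the last end of ARAD1A.

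**Figure D2:**
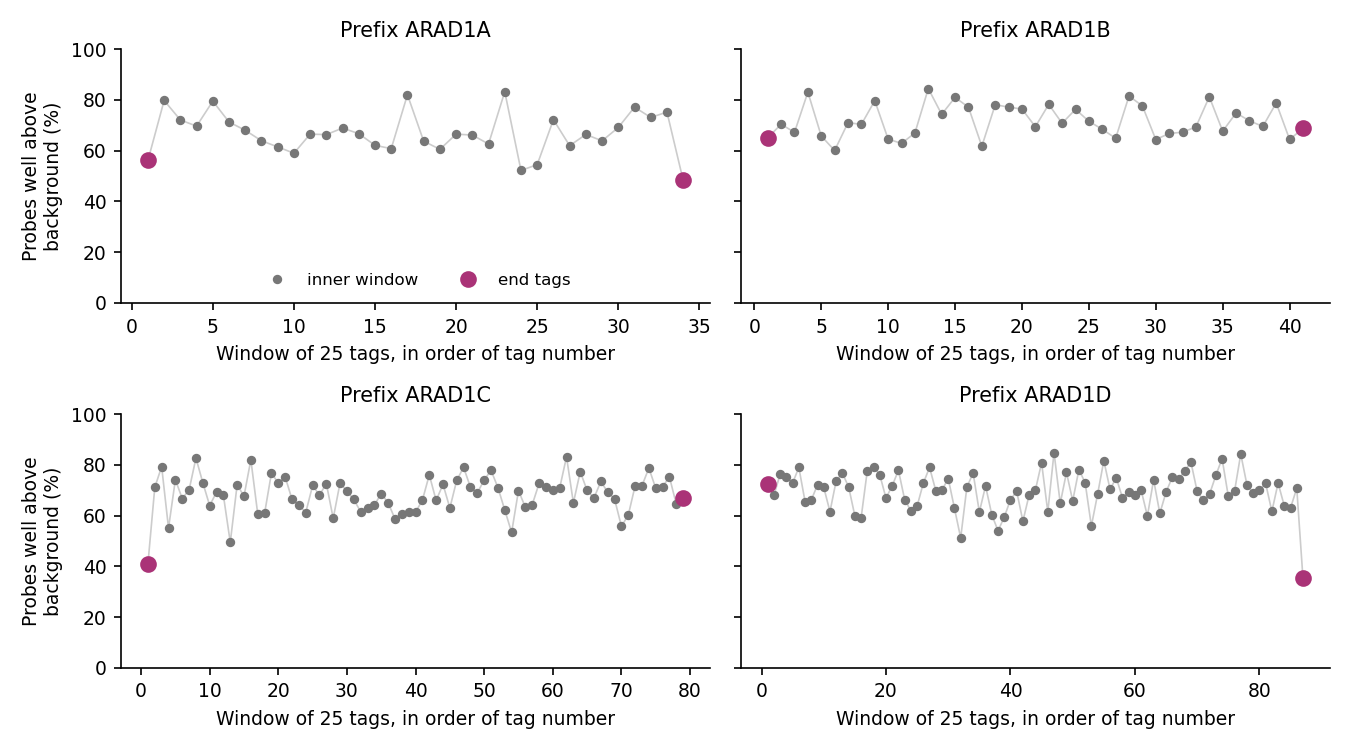
Share of probes well above background (%, mean over 8 arrays) in consecutive windows of 25 tags along each prefix, in order of tag number; the last inner window of each prefix takes the remainder (31 to 49 tags) and the last end of C holds 16. Large points are the end tags, and those of the last end of D (35.2%), the first end of C (41.0%) and the last end of A (48.3%) lie below all 233 inner windows.

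Within the ends, the outermost tags were the weakest. The mean share was 35.5% over the 35 tags at ranks 1 to 5 counted from the end, with array values between 24.7% and 45.9%. It was 58.3% at ranks 6 to 10, 62.4% at ranks 11 to 15, 56.9% at ranks 16 to 20 and 65.3% at ranks 21 to 25. Of the 35 outermost tags, 19 (54.3%) had a mean share under 25%, compared with 27 (17.3%) of the remaining 156 end tags. The limit of 25 tags did not mark a step. The 8 tags at rank 25 had mean shares from 16.1% to 100% (median 59.4%), and the 8 tags at rank 26, just outside, had shares from 8.75% to 100% (median 65.0%). Ranks 31 to 40 reached 73.3%, and the later blocks of 10 ranks up to rank 200 stayed between 66.0% and 76.1%.

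The single outermost tag of each end shows the range. ARAD1C00110g (3 probes) had a level between 5.85 and 6.0 over the 8 arrays, and 1 of its probes was above background on 1 array. ARAD1D50798g lay between 5.93 and 6.03, ARAD1A19954g between 5.83 and 6.17, and ARAD1A00110g between 5.93 and 6.14. ARAD1C00110g and ARAD1D50798g stayed close to the level of undetected probes on every array, whereas ARAD1A19954g had 90% of its probes above background at 2 h in glucose and ARAD1A00110g had 50% to 60% on 3 of the glucose arrays. ARAD1D00033g lay between 6.01 and 6.33, ARAD1B00132g between 5.83 and 6.48, and ARAD1B24442g between 6.1 and 6.47. ARAD1C45584g, the outermost tag kept at the last end of ARAD1C, differed from the others with levels between 7.77 and 8.42 and all of its 5 probes above background on all arrays, but it is only at rank 10 because the 9 tags outside it are not among the end tags.

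Some of the outermost probes carry a trailing X in their name, a mark whose meaning is not given in the sources used here. They made up 13.3% of the 316 probes of the 35 outermost tags, 0.972% of the probes of the remaining end tags and 2.45% of the probes elsewhere. All 10 probes of ARAD1D00033g and 8 of the 10 probes of ARAD1A00110g carry it. With these probes left out, the share of the end tags was 56.9% and the level difference −0.21. The mean share over the 274 remaining probes of the outermost tags was 36.2% (array values between 26.6% and 44.9%), so the outermost ranks were as weak without the marked probes.

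**Figure D3:**
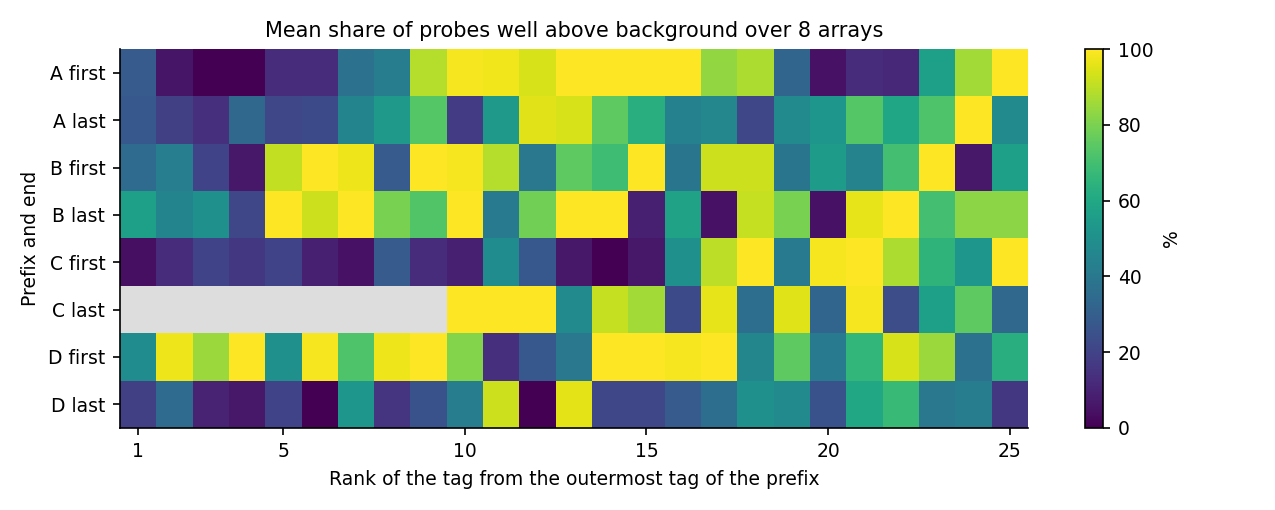
Mean share of probes well above background over the 8 arrays (colour, %) for each end tag, with the 8 ends as rows and the rank from the outermost tag as columns (grey, the stretch left out at the last end of C). Dark cells gather at ranks 1 to 5 (35.5% on average) and along the first 15 tags of C.

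Weak tags also stood next to each other. Runs of at least 3 neighbouring tags with a mean share under 25% occurred 17 times over the 4 chromosomes, and 5 of these runs lay among the end tags. The 17 runs held 63 tags, of which 22 were end tags. Single weak tags were already more frequent at the ends (24.1% against 9.86%), and whether runs exceed that share was not tested. The only runs of at least 5 tags were at ends, namely ARAD1C00110g to ARAD1C00242g (7 tags, shares of 4.17% to 20.0%) and ARAD1A00132g to ARAD1A00220g (5 tags, 0% to 12.5%). A run of 4 tags was found at the last end of ARAD1D (ARAD1D50688g to ARAD1D50754g, 0% to 20.0%), and 5 more runs of 4 lay inside the chromosomes.

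The first end of ARAD1C was the longest weak stretch. Leaving aside ARAD1C00330g, the other 14 of its first 15 tags never exceeded a level of 6.18 on any array, and 12 of the 14 had a mean share under 25%. Further in, the same end was active, with ARAD1C00484g and ARAD1C00572g above background with all probes on every array. The first end of ARAD1A held weak and bright tags in turn. Its tags at ranks 2 to 6 had shares of 12.5% or less, whereas the tags at ranks 9 to 16 had shares from 88.8% to 100% and mean levels up to 8.95. Further in, ARAD1A00528g to ARAD1A00572g were weak again, with shares of 5% to 12.5%.

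The end tags with the highest mean level were ARAD1B24178g and ARAD1D00330g. ARAD1B24178g had levels of 10.32, 10.01, 9.99 and 10.04 in glucose and of 10.38, 10.11, 9.32 and 9.86 with gallic acid, in the order of the harvest times. ARAD1D00330g had 9.71, 9.10, 9.27 and 9.87 in glucose and 10.10, 9.46, 9.18 and 9.52 with gallic acid. Both were bright on all arrays, so that a place near an end did not go with a weak signal in every tag.

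The next comparison addressed the course after the change of medium, which both arms share. It set the mean of 2 h and 5 h against the mean of 15 min and 30 min in a linear model of limma with treatment and harvest time as terms, and called a tag at a Benjamini-Hochberg adjusted p below 0.05 over all 6112 tested tags. Tags were tested when at least 1 probe was well above background on at least 2 arrays, which 185 of the 191 end tags met. Of these, 13 (7.03%) rose and 15 (8.11%) fell, against 13.1% and 10.8% of all tested tags. The median change was −0.02 for the end tags and −0.00 for the other tags. Among the tags for which at least 50% of the probes were above background on at least 4 arrays, 10.6% of 113 end tags rose and 11.5% fell, against 14.9% and 13.7% of 4548 other tags. The gap was smaller among brighter tags, and the part of signal strength in it was not tested. These calls rest on the 2 h arrays. With the 2 h arrays left out, 1.08% of the end tags rose and 0% fell, against 3.14% and 2.13% of the other tags. With the 5 h arrays left out, 12.97% of the end tags fell, against 15.1% of the other tags.

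The called tags were spread over the ends. The first ends of ARAD1B and ARAD1C each had 3 tags that rose, the last ends of ARAD1A and ARAD1B and the first end of ARAD1D each had 2, and the first end of ARAD1A had 1. No tag rose at the last ends of ARAD1C and ARAD1D, where 2 of 16 and 4 of 23 tested tags fell. Over all tested tags 13.1% rose and 10.8% fell, and with 16 to 25 tested tags per end such small counts cannot tell the ends apart. At no end did 3 neighbouring tags pass this test in the same direction, and such runs were not counted among the other tags.

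The 2 largest rises were at the first end of ARAD1C, on the inner side of its weak stretch. ARAD1C00484g had levels of 7.16, 7.47, 9.83 and 7.61 in glucose and of 6.95, 7.05, 9.19 and 7.79 with gallic acid. It was highest at 2 h in both arms, and its change from early to late harvest was 1.45 (SE 0.138, limma adjusted p = 0.00357). ARAD1C00572g had levels of 8.14, 7.98, 10.06 and 7.66 in glucose and of 7.91, 7.33, 9.63 and 7.70 with gallic acid, with a change of 0.92 (SE 0.116, limma adjusted p = 0.00676). Its late value is that of 2 h alone, since its 5 h levels lay below the 15 min levels in both arms. Without the 2 h arrays the change was 0.54 for ARAD1C00484g (adjusted p = 0.119) and −0.16 for ARAD1C00572g (adjusted p = 0.591).

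Of the tags that fell, 2 are given. ARAD1B00308g had levels of 7.91, 8.72, 7.06 and 7.80 in glucose and of 7.65, 8.25, 7.16 and 7.90 with gallic acid, a change of −0.65 (SE 0.114, limma adjusted p = 0.0165). It was highest at 30 min and lowest at 2 h in both arms. ARAD1A00418g (3 probes) had levels of 8.70, 8.80, 7.85 and 9.02 in glucose and of 9.23, 9.13, 8.04 and 8.89 with gallic acid, a change of −0.52 (SE 0.111, limma adjusted p = 0.0297). It was low at 2 h only. Without the 2 h arrays the changes were −0.28 (adjusted p = 0.287) and −0.01 (adjusted p = 0.976), and without the 30 min arrays −0.30 (adjusted p = 0.103) and −0.51 (adjusted p = 0.0744).

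Set against 15 min, the end tags changed most at 2 h. At 30 min 13 end tags rose and 12 fell (7.03% and 6.49%), against 7.64% and 6.74% of all tested tags. At 2 h 23 rose and 34 fell (12.4% and 18.4%), against 18.4% and 19.4%. At 5 h 6 rose and 12 fell (3.24% and 6.49%), against 6.74% and 6.53%. The share of end tags was close to that of all tags at 30 min and for the falls at 2 h and 5 h, and lower for the rises at 2 h and 5 h. The 3 comparisons share the 15 min arrays. In at least 1 of them 70 end tags (37.8%) changed, compared with 46.4% of all tested tags. The share was 7.57% without the 2 h arrays and 24.3% without the 5 h arrays, against 11% and 32.7% of the other tags. Under the stricter filter on probes above background it was 54.0% of 113 end tags against 53.6% of the other tags. The gap in this pooled share was thus not seen among brighter tags. For the rises it remained in the main fit, with 15.9% of brighter end tags against 20.3% of brighter other tags at 2 h. At 5 h it was 5.31% against 8.71%. The falls went the other way, with 27.4% against 23.9% at 2 h and 8.85% against 8.11% at 5 h.

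Runs of at least 3 neighbouring end tags called in the same direction were found at 4 places in these comparisons. Such runs were not counted among the other tags, so they cannot be read as a trait of the ends. At the first end of ARAD1A, 3 neighbouring tags (ranks 9 to 11) and 4 more (ranks 14 to 17) fell at 2 h, by between 0.70 and 1.83 and between 0.26 and 1.02 on the log2 scale. At the last end of ARAD1B 3 neighbouring tags rose at 2 h by 0.21 to 0.54, and at the first end of ARAD1D 3 neighbouring tags fell at 30 min by between 0.34 and 0.64.

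The tag with the largest fall at both 30 min and 2 h was ARAD1A00308g. Its levels were 10.29, 8.86, 8.13 and 9.52 in glucose and 9.71, 7.22, 8.20 and 9.64 with gallic acid. It fell by 1.96 at 30 min (SE 0.449, limma adjusted p = 0.0495) and by 1.83 at 2 h (SE 0.449, limma adjusted p = 0.0299), and the lowest array was 2 h in glucose but 30 min with gallic acid. The 30 min call was lost without the 2 h arrays (adjusted p = 0.0829) and without the 5 h arrays (adjusted p = 0.088).

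At 30 min the largest rises were those of ARAD1B00352g and ARAD1D50358g. ARAD1B00352g went from 6.46 at 15 min to 7.73 at 30 min in glucose and from 6.11 to 7.43 with gallic acid, and stood at 6.57 and 6.65 in glucose and 6.60 and 6.88 with gallic acid at 2 h and 5 h. The rise was 1.29 (SE 0.156, limma adjusted p = 0.0109). ARAD1D50358g went from 6.11 to 6.69 in glucose and from 5.97 to 7.28 with gallic acid, and was between 5.98 and 6.13 at 2 h and 5 h in both arms, with a rise of 0.95 (SE 0.200, limma adjusted p = 0.041). Its adjusted p was 0.0849 without the 2 h arrays and 0.0875 without the 5 h arrays. Both tags were highest at 30 min in both arms.

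The second fall given for 30 min is that of ARAD1A00330g, the neighbour of ARAD1A00308g, by 0.84 (SE 0.116, limma adjusted p = 0.0151). The second fall given for 2 h is that of ARAD1B24002g, which had levels of 9.94, 9.78, 9.13 and 9.37 in glucose and 10.66, 9.25, 8.71 and 9.24 with gallic acid (−1.38, SE 0.312, limma adjusted p = 0.0237, and 0.0575 without the 5 h arrays). At 5 h the largest rise among the end tags that passed was 0.68 for ARAD1D00110g (SE 0.0935, limma adjusted p = 0.0164) and the largest fall among them −0.51 for ARAD1A19448g (SE 0.0894, limma adjusted p = 0.0286, and 0.0599 without the 2 h arrays). No end tag changed by 1 or more on the log2 scale at 5 h.

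The comparison of the arms asked which end tags respond to gallic acid. With harvest time as a block, 0 of the 185 tested end tags passed the threshold in limma, against 5 of all 6112 tested tags (0.0818%), all 5 of them higher with gallic acid. An unadjusted p below 0.05 was reached by 15 end tags (8.11%) and by 8.67% of all tested tags. The median log2 ratio of gallic acid to glucose was −0.00 for the end tags and −0.01 for the other tags. At the single harvest times between 82.2% and 94.8% of the end tags had a ratio within 0.25 of 0, and between 81.0% and 92.2% of the other tags did. In the main processing the ends as a whole thus had gallic acid ratios close to 0, like the rest of the chromosomes. The normexp offset of 50 compresses ratios of dim tags, and more of the end tags were dim, which limits this likeness. The median ratio of the end tags was −0.0168 at offset 0 and −0.10 with the scanner's processed signal. With 1 array per arm and harvest time, a response that changes over time counts as error in this test.

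Within a harvest time, a tag was counted by size if its log2 ratio reached 1 in either direction and 80% or more of its probes moved the same way. This count has no p-value. It took in 6 of the 185 end tags (3.24%) at any harvest time, 4 of them higher and 2 lower with gallic acid, against 2.05% of all tested tags. By harvest time, earliest first, 0, 2, 3 and 1 end tags were higher, against 0.654%, 0.524%, 0.524% and 0.262% of all tested tags. At the same harvest times 0, 1, 1 and 0 end tags were lower, against 0.229%, 0.18%, 0.311% and 0.164%. These 6 tags lay at 4 ends, the first and last ends of ARAD1A and of ARAD1C, and none was found on ARAD1B or ARAD1D. The placement depends on the processing, and in the authors' log2 table ARAD1B00396g and ARAD1D00044g met the rule as well. The share does too. It was 10.3% of end tags at offset 0, against 6.06% of the other tags, and 25.4% with the processed signal, against 17.4%.

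The largest ratio was that of ARAD1A19800g, at rank 8 of the last end of ARAD1A, whose function is not given in the sources used here. In glucose its levels were 6.0, 6.02, 5.91 and 6.06, and 20%, 20%, 10% and 0% of its 10 probes were above background. With gallic acid its levels were 6.41, 7.16, 9.28 and 7.71, and 80%, 100%, 100% and 100% of its probes were above background. The arms did not overlap, but the share of all tested tags for which this holds is not given here. By harvest time the log2 ratios came to 0.41, 1.14, 3.37 and 1.65, and the mean ratio of 1.64 (SE 0.486) did not pass the test (limma adjusted p = 0.509). It passed under none of 17 alternatives, whose mean ratios ran from 1.07 to 4.15 and whose adjusted p ran from 0.0745 to 1. The change of its ratio between early and late harvest was 1.74 (SE 0.649, limma adjusted p = 0.915).

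The tags just outside ARAD1A19800g had smaller ratios at 2 h. The tag next to it had 0.49, the following tag 1.11 and the third 0.41, and the 5 tags on its inner side had between 0.03 and 0.18. At the other harvest times the 3 outer tags had ratios between −0.09 and 0.30. The 5 inner tags had between −0.16 and 0.54, so the outer side was the higher at 2 h only. The tag with 1.11, chosen for mention after its values were seen, was close to background on the other 7 arrays, with levels from 5.90 to 6.05, and had 7.02 at 2 h with gallic acid, where all of its 10 probes were above background.

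ARAD1C00330g, the candidate hydroxylase named in the study, lies at rank 11 within the weak stretch of ARAD1C. The study listed it among several candidates from its arrays with protocatechuic acid, and not from the gallic acid arrays used here. It had the highest expression change of those candidates, and the study left to later work whether any of them is a functional hydroxylase of this kind. The levels of ARAD1C00330g in glucose were 5.90, 5.98, 5.89 and 5.90, with 0% to 20% of the 10 probes above background. With gallic acid they were 6.33, 7.12, 6.70 and 6.59, with 70%, 100%, 100% and 90% above background. Every gallic acid array was above every glucose array, which is again stated without the share of all tested tags. The ratios were 0.44, 1.14, 0.80 and 0.69. The mean ratio was 0.77 (SE 0.117, limma adjusted p = 0.286, the lowest among the end tags). The offset of 50 compresses ratios of dim tags, and the call changed with it. At offset 0 the mean ratio was 2.31 (limma adjusted p = 0.000559) and with the scanner's processed signal 3.28 (limma adjusted p = 0.00541). In both of these settings 1 of the 185 end tags passed (0.541%), against 0.290% and 0.205% of the other tags. They were the only 2 of 17 alternatives under which ARAD1C00330g passed. In the authors' log2 table the mean ratio of ARAD1C00330g was 1.36 (limma adjusted p = 0.0504), and with median scaling 0.78 (limma adjusted p = 0.209). Its neighbours on both sides, ARAD1C00308g and ARAD1C00352g, had ratios between −0.03 and 0.17 at the 4 harvest times.

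The third tag, ARAD1C00462g, at rank 17 of the same end, was mentioned after its values were seen. Its levels were 6.48, 6.77, 6.63 and 6.84 in glucose and 6.38, 6.89, 8.65 and 6.87 with gallic acid. It stood out on the 2 h array with gallic acid alone, with a ratio of 2.02, and the ratios at the other harvest times were −0.10, 0.12 and 0.03.

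The tags that were lower with gallic acid were ARAD1A00308g at 30 min (−1.64) and ARAD1C45540g at 2 h (−1.03). ARAD1C45540g had levels of 9.68, 9.20, 8.81 and 9.78 in glucose and 9.09, 9.13, 7.77 and 9.44 with gallic acid. It was lower with gallic acid at each harvest time (mean ratio −0.51, SE 0.160, limma adjusted p = 0.512), but its arms overlap. ARAD1A00308g was lower with gallic acid at 15 min as well (−0.58), and the ratios at 2 h and 5 h were 0.08 and 0.12.

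**Figure D4:**
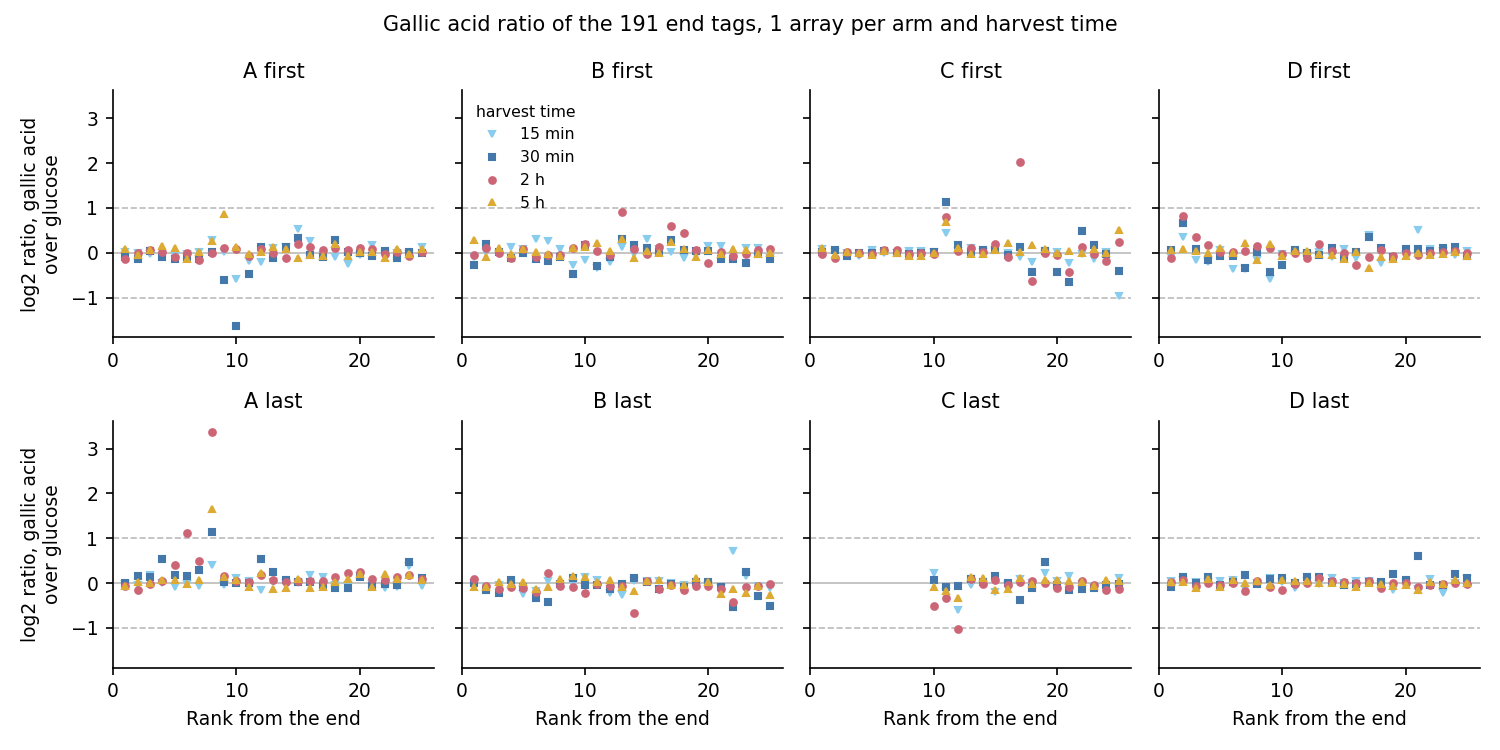
Gallic acid ratio (log2 level with gallic acid minus level in glucose) of each end tag at the 4 harvest times, against its rank from the outermost tag, 1 panel for each end; dashed lines mark 1 and −1. Most points lie near 0, and the largest ratio is that of rank 8 of the last end of A at 2 h (3.37).

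Whether the gallic acid ratio changed between early and late harvest was tested as an interaction. It was called in 0 of the 185 end tags and in 0% of all 6112 tested tags by limma, and an unadjusted p below 0.05 was reached by 9 end tags (4.86%) and 5.46% of all tested tags. The lowest value was −0.59 for ARAD1D00330g (SE 0.116, limma adjusted p = 0.672), whose ratios were 0.39, 0.36, −0.09 and −0.35.

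**Figure D5:**
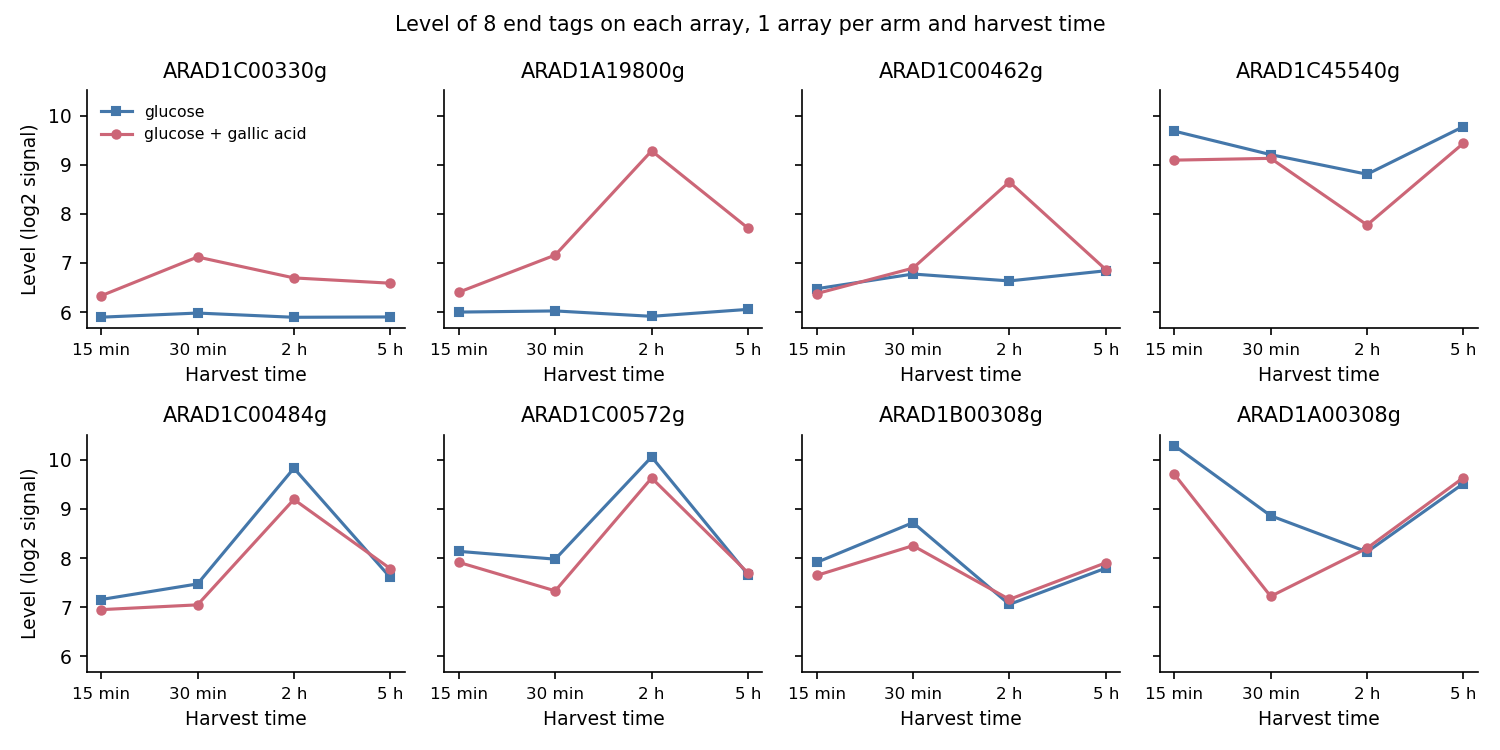
Level (log2 signal) of 8 end tags at the 4 harvest times in glucose (squares) and in glucose with gallic acid (circles), 1 array per point. ARAD1A19800g and ARAD1C00330g are above glucose at each harvest time with gallic acid, and ARAD1C00484g and ARAD1C00572g peak at 2 h in both arms (9.83 and 10.06 in glucose).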

How the data were processed

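Scanner files as deposited give the intensity of each spot on a linear scale, for which the authors had run Agilent Feature Extraction 11.5.1.1, and flags of 0 or 1 (other values, with no unit, deposited in the same files). A second deposited table, of log2 values of these arrays, came from the authors after normexp and quantile normalisation in limma, with the offset not given in the sources used here. Column medians of that table lay between 5.63 and 5.65, it is not centred by gene, and it correlated with the scanner values at r of 0.991.

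Median spot signals were corrected with normexp (offset 50) against the median local background on all spots, in R 4.3.3 with limma 3.58.1. The 1439 control spots were removed, the arrays were quantile-normalised, and spots of 1 probe were averaged. The 61537 remaining spots carry 56312 probes, of which 1 probe set has no tag. Outlier spots were left out (0 to 6 per array), and no yeast spot was saturated. The 5 probes whose tag ended in an extra low line were counted with ARAD1B23958g.

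The additive fit had 3 residual degrees of freedom and the interaction fit 2. After subtraction of the mean of each arm, the Pearson correlation over tags between the arms at 1 harvest time was 0.749, 0.760, 0.909 and 0.861, and 0.005 at most between different harvest times. The subtraction itself lowers correlations between different harvest times, so their low values are no sign of pairing. The arrays are paired by harvest time because the labels give it. No set test was run on the end tags, and their level and share are descriptions. The number of arrays limits the precision.

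The end tags, the gene lists and the alternatives were chosen with earlier results of these data known. Tags were named by rule: the outermost tag of each end, the tag with a role in the study, at most the 2 highest and 2 lowest that passed each test (or the highest and lowest with at least 4 probes where none passed), the highest and lowest past the size threshold at a harvest time, and the 2 of highest mean level.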

Additional observations from a re-analysis of the deposited data

Results flagged for a closer look

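Within an arm the 4 arrays are harvest times, so an array that stands apart is also a harvest time that stands apart. The distance of the highest or lowest array from its nearest neighbour, divided by the range of the arm, exceeded Dixon's critical value (0.829 for 4 arrays) in 8 of 60 sets of 4 values examined, and chance gives about 1 in 20. Many of these sets belong to tags named for a large change at 1 harvest time, so the number of flags cannot be read against that rate.

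ARAD1D50358g was apart at 30 min in both arms, with a level of 6.69 in glucose and 7.28 with gallic acid. In glucose, ARAD1B00352g (7.73), ARAD1B00132g (6.48) and ARAD1C00330g (5.98) were also apart at 30 min. The last of these values lies within the levels of undetected probes, and the range of that tag over the glucose arm was from 5.89 to 5.98. ARAD1C00484g was apart at 2 h in glucose (9.83), ARAD1B24178g at 15 min in glucose (10.32) and ARAD1B24442g at 2 h with gallic acid (6.19).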

How the results depend on the processing

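The level difference between end tags and other tags kept its sign under all alternatives run. It was −0.87 with the processed signal minus its 75th percentile, −0.62 at offset 0, −0.40 in the authors' log2 table, −0.34 with the brightest probe, −0.11 under the stricter filter (113 end tags), −0.21 with tags of at least 4 probes, −0.35 with ends of 10 tags, −0.11 with ends of 50 tags and −0.17 without the last end of ARAD1D. Without 1 harvest time it ran from −0.23 to −0.22. The share of probes above background was 47.0% with ends of 10 tags.

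The share of end tags that rose in the course was 11.5% when refitted under the stricter filter (14.7% of other tags), 2.99% with ends of 10 tags (13.3%) and 0.541% with Bonferroni adjustment (0.427%). Those that fell made up 13.5% at offset 0 (13.9% of other tags), 4.48% with ends of 10 tags (11%), 0% with Bonferroni adjustment (0.0853%) and 12.4% with a trended and robust prior (13.8%). The share changed against 15 min was 0.541% with Bonferroni adjustment (1.83%). Without 1 harvest time, the share that rose ran from 1.08% to 10.3%, the share that fell from 0% to 12.97% and the share changed against 15 min from 7.57% to 31.4%. The lowest value came without 2 h in each of these.

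Gallic acid called 0.541% of end tags with the processed signal (0.205% of other tags) and at offset 0 (0.290%), and 0.515% with the stretch of ARAD1C kept among the end tags (0.0684%). Without harvest time in the model (no replicate block) it called 0%, as with the block. The median ratio was −0.10 with the processed signal, −0.0168 at offset 0, 0.00884 with median scaling and −0.0180 with the brightest probe. The size count was 25.4% with the processed signal (17.4% of other tags), 10.3% at offset 0 (6.06%), 5.41% in the authors' table (3.45%), 8.11% with the brightest probe (4.01%) and 2.08% with ends of 50 tags (1.96%). ARAD1C00572g reversed in the course without 2 h (−0.16), and its change ran up to 2.004 without 5 h.

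For single tags, 292 of the values under alternatives kept their direction and side of the threshold. Of the rest, 37 lost the call, 2 gained it and 1 reversed. Some of the 292 could not differ, since the alternative without the replicate block refitted the gallic acid test only. The 292 also include values that passed neither in the main fit nor under the alternative. Of the values of the main comparisons, 124 stayed close and 35 moved. Leaving out the probes with a trailing X and the last end of ARAD1D were chosen after seeing the data. With no replicate within a harvest time, and many end tags at background, differences could be missed, large ones among them. A tag without a call is therefore not shown to be unchanged.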
